A study of Mus musculus with 5 samples.

Results

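Cytosolic ribosomal protein genes were followed across 5 arrays of mouse embryonic fibroblasts (MEFs). The members were all genes whose symbol has the form of a cytosolic ribosomal protein, Rpl or Rps with a number and an optional letter a, x, y or l, together with Rplp0, Rplp1, Rplp2 and Rpsa. They numbered 64 of the 22180 genes that had a probe set with a single symbol in the platform annotation, 40 of the large subunit and 24 of the small subunit. Where a gene had several such probe sets, the one with the highest mean over the 5 arrays was read. A further 13 symbols of this form, among them Rpl10, Rpl12, Rpl13a, Rps2 and Rps21, occurred only on probe sets shared with other genes and were not analysed here. All 64 Entrez identifiers were found in the RefSeq gene table, which lists Rpl6l as a pseudogene and Rps4l as a transcribed pseudogene.

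All 5 arrays came from STING-/- MEFs reconstituted with STING R284S, an overactive variant of the adaptor protein that relays cytosolic DNA sensing. The labels call the cells primary, and the controls carried the same knockout and the same variant as the treated cells. One array each was hybridised for vehicle, Compound C, doxorubicin, GSK 690693 and tofacitinib, after a treatment of 9 hours. Compound C inhibits the energy sensor AMPK, doxorubicin poisons topoisomerase II and intercalates into DNA, GSK 690693 inhibits AKT kinases and tofacitinib inhibits JAK kinases. The sources used here give no doses. Because each group is a single array, the spread between samples is unknown, nothing below carries a p-value, and each difference is one between single arrays.

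Each ribosome holds 1 copy of nearly every ribosomal protein, so the genes are transcribed in step and at high levels in dividing cells. Their mRNAs begin with a cytosine followed by a run of pyrimidines, the terminal oligopyrimidine (TOP) tract. Through this tract the LARP1 protein holds their translation under the control of the kinase mTORC1, which lies downstream of AKT and is restrained by AMPK. Free ribosomal proteins, above all the Rpl5 and Rpl11 pair, bind MDM2 and thereby stabilise p53 when ribosome assembly fails. Mammalian genomes hold many processed copies of these genes that are nearly identical in sequence to the mRNA.

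Start site sequence, which the choice of members did not use, showed the tract at the annotated start of some members. RefSeq promoter sequences of GRCm38.p6, 250 bases before to 50 bases after each annotated start, were at hand for 49 of the 64 members. A cytosine at the start followed by at least 4 pyrimidines was found at the annotated start of 11 of these 49 genes (22.4%), against 3.01% of all 27025 genes in the table. The 9 of them that passed the filter on signal are printed below from 40 bases before the start to 20 bases from it, 5′ to 3′ on the gene's strand. Capitals mark the cytosine at the start and the pyrimidines that follow it.
Rpl14 (chr9:120571477-120571536, plus strand): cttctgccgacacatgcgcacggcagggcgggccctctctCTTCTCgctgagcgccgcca
Rpl15 (chr14:18270967-18271026, minus strand): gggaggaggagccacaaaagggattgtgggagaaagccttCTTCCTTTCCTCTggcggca
Rpl28 (chr7:4792925-4792984, plus strand): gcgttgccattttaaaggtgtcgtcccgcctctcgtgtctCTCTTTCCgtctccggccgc
Rpl35 (chr2:39005112-39005171, minus strand): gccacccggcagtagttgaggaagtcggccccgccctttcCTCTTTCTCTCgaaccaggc
Rpl38 (chr11:114668540-114668599, plus strand): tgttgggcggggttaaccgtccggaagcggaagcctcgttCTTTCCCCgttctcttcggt
Rps6 (chr4:86857348-86857407, minus strand): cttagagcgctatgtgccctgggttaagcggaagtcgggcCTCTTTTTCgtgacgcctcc
Rps10 (chr17:27635225-27635284, minus strand): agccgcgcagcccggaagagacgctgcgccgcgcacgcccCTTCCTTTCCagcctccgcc
Rps18 (chr17:33955646-33955705, minus strand): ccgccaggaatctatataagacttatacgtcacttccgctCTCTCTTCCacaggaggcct
Rps27 (chr3:90213629-90213688, minus strand): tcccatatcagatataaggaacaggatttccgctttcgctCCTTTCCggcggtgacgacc

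The run of pyrimidines, the leading cytosine included, was 6 bases long in Rpl14 and 13 bases long in Rpl15. A tract of the same form that began within 15 bases of an annotated start was found in 36 of the 49 member genes (73.5%) and in 44.9% of all genes. Searched on both strands of the 300-base window, the ETS core CCGGAA was present in 28 of the 49 member genes (57.1%) against 16.7% of all genes, and the SP1 core GGGCGG in 25 (51.0%) against 38.2%. The YY1 core AAGATGG occurred in 6 (12.2%) against 7.28%, TATAAA in 5 (10.2%) against 15.7%, and the E-box CACGTG in 4 (8.16%) against 8.09%. A match of letters is a description of the window and not a binding site. The 9 tested members with a tract at the annotated start had a median log2 difference from vehicle of 0.31 (Compound C), 0.29 (doxorubicin), 0.09 (GSK 690693) and −0.05 (tofacitinib). The 33 tested members in the promoter table without one had medians of 0.29, 0.42, 0.12 and 0.15. Of the 9, 4 were read from a probe set near the gene in the numbering described below, against 20 of the 33. The 9 include Rpl28 and Rps6, which are among the brightest members. The part of numbering or brightness in these medians was not tested. With doxorubicin the median was 0.35 over the 25 tested members with the ETS core and 0.44 over the 17 without it. Rps19, among the highest members with doxorubicin, carries the core just upstream of an annotated start. The lowest member with doxorubicin, Rpl26, carries it just downstream of its annotated start, shown in capitals in the same 60-base window.
Rpl26 (chr11:68901526-68901585, plus strand): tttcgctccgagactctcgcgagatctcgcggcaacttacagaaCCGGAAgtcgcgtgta

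Signal was deposited as log2 values that ran from 1.05 to 13.18. A gene passed the filter, and is called tested below though no statistical test was possible, when its highest value over the arrays reached the median of that array, which lay between 5.37 and 5.44, and 57 members and 12317 genes in all did. The 7 members below the filter were Rpl11, Rplp2, Rpl39, Rps15, Rpl3l, Rpl10l and Rpl32l. Just outside the filter were Rpl11, whose best array fell 0.10 short of its median, and Rps15, 0.13 short, and just inside it was Rps20, 0.22 above. On the vehicle array 4 members that passed lay under the median of 5.44, Rps20 (5.28), Rpl37 (5.32), Rpl30 (5.38) and Rpl27a (5.40). They passed through a brighter compound array, which favours a positive difference from vehicle. Rps16 lay under the median on the doxorubicin, GSK 690693 and tofacitinib arrays, and Rps4l on the Compound C array. Rps16 passed only through vehicle and Compound C, which favours a negative difference from vehicle with the other compounds. Requiring all 5 values to reach the median left 51 members. Of the 7, Rpl3l is a muscle paralog and Rpl10l a testis paralog, but Rpl11, Rplp2, Rpl39 and Rps15 encode constituents of ribosomes in general. Rpl11 read 5.10 (vehicle), 4.97 (Compound C), 4.65 (doxorubicin), 4.96 (GSK 690693) and 5.27 (tofacitinib). Rplp2 lay between 4.27 and 4.48 on the 5 arrays. The brightness of a probe set is no measure of transcript abundance between genes of this family, and signals are compared below only between arrays for the same probe set.

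Many of the bright probe sets carried numbers apart from those of the gene's neighbours. Probe set numbers mostly follow genomic order: of 1983 probe sets drawn from those with 1 symbol and a gene in the RefSeq table, 97.7% had at least 5 of their 10 nearest named neighbours within 5 Mb of their gene. Among the 57 tested members the probe set read was near its gene in this sense for 34 and away from it for 23. Those away included Rps6, Rps13, Rps19, Rps26, Rps28, Rpsa, Rpl9, Rpl28 and Rplp0. Of the 33 tested members with a mean signal of 9 or more, 12 were near, and these were Rpl4, Rpl6l, Rpl8, Rpl10a, Rpl14, Rpl32, Rpl38, Rplp1, Rps3, Rps4x, Rps9 and Rps12. Where the probes of an away probe set lie was not determined here. Identical values on all 5 arrays were listed for 6 probe sets of Rps12, 2 of Rpl23a and 2 of Rps19.

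Across the 57 tested members, vehicle gave the lowest signal and doxorubicin the highest more often than across all genes. Vehicle was strictly lowest in 36 members (63.2%) against 18.2% of all tested genes. Doxorubicin was strictly highest in 45 members (78.9%) against 35.7%. Compound C was highest in 9 members, vehicle in 1, and GSK 690693 and tofacitinib in 0. Vehicle minus the median of the 4 compound arrays had a median of −0.24 over the members and −0.04 over all tested genes. Below 0 lay 51 of the 57 members, against 6948 of all 12317 tested genes. All 4 comparisons with vehicle share that array, so a low reading on it enters each of them.

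**Figure D1:**
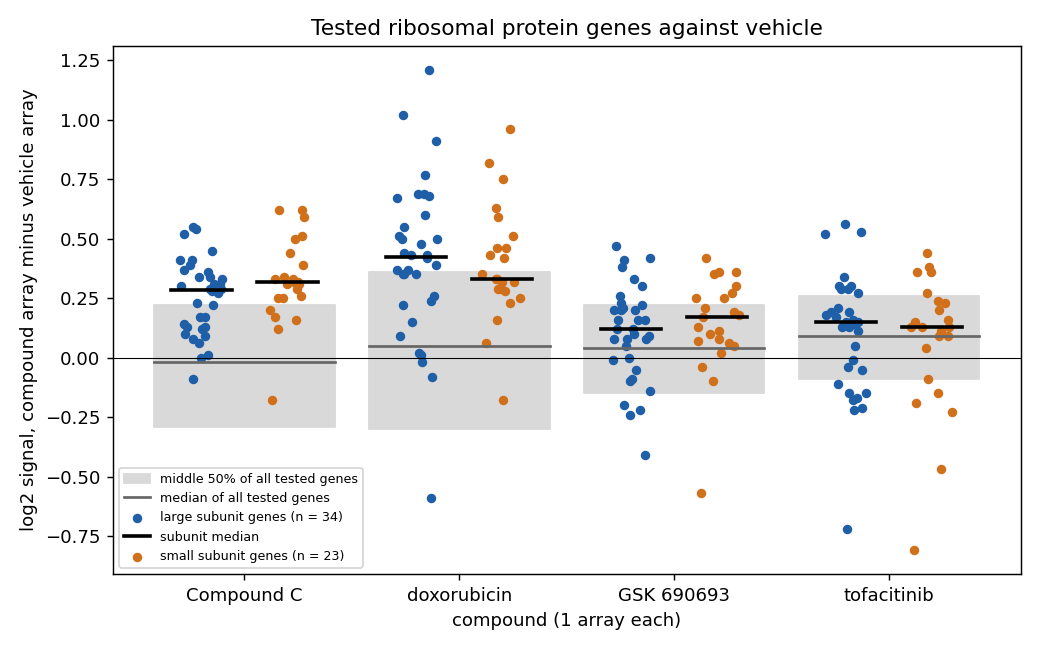
Log2 signal on each compound array minus the vehicle array (y axis) for the 34 large subunit and 23 small subunit genes that passed the filter, 1 point per gene, with black bars at the subunit medians and grey bands for the middle 50% of all 12317 tested genes. With Compound C both subunit medians (large 0.285, small 0.32) lie above the band, whose upper edge is 0.22. With doxorubicin the large subunit median (0.425) lies above the upper edge of 0.36 and the small subunit median (0.33) inside it.

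With doxorubicin the members read above vehicle by small and mostly similar amounts, whichever subunit they belong to. Of the 57 tested members 53 lay above vehicle (93.0%, against 54.0% of all tested genes) and 4 below. The median log2 difference was 0.39 against 0.05 over all tested genes. At least 1.5-fold higher were 14 members (24.6%), against 11.5% of all tested genes, and 1 member (1.75%) was at least 1.5-fold lower, against 14.2%. The count of 14 fell to 12 when all 5 values had to reach the median, to 9 with a gene's probe sets averaged, and to 5 against the median of the other 4 arrays. The share of all tested genes was not counted under these settings, so these counts cannot be set against 11.5%. At 2-fold, 2 members were higher, against 1.33% of all tested genes, and 0 lower, against 6.45%. The standard deviation of the difference was 0.303 over the members and 0.584 over all tested genes. Among genes with a mean signal of 9 or more, the median was 0.44 for 33 members and 0.13 for all 2157 genes, and 9 members (27.3%) against 8.21% were at least 1.5-fold higher.

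The largest difference was in Rpl30, a kink-turn RNA-binding protein of the large subunit (probe set 17316378), one of the 4 members under the median on the vehicle array. It read 5.38 (vehicle), 5.67 (Compound C), 6.59 (doxorubicin), 5.71 (GSK 690693) and 5.90 (tofacitinib), a 2.31-fold difference for doxorubicin (log2 1.21). The doxorubicin array stands alone here, and the other compound arrays lie within 0.52 of vehicle. Rpl37a, a zinc-binding protein of the large subunit (probe set 17214100), read 5.90, 6.31, 6.92, 5.90 and 6.06 in the same order, 2.03-fold higher with doxorubicin. Rpl27a of the large subunit read 5.40, 5.52, 6.31, 5.60 and 5.74, 1.88-fold higher with doxorubicin. These 3 members are dim, near in the numbering, and highest on the doxorubicin array, and Rpl30 and Rpl27a passed the filter only through arrays brighter than vehicle.

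Small subunit members with the largest doxorubicin differences also stood above vehicle with Compound C. Rps13, which binds the rRNA close to the subunit interface, read 7.91 (vehicle), 8.53 (Compound C), 8.87 (doxorubicin), 7.99 (GSK 690693) and 8.35 (tofacitinib). Rps19, needed for small subunit maturation and the first gene linked to Diamond-Blackfan anaemia, read 9.52, 10.03, 10.34, 9.77 and 9.68 in that order. Both rank doxorubicin first, Compound C second and vehicle last, and both readings come from away probe sets. Rps28, at the mRNA exit, read 10.22, 10.84, 10.97, 10.39 and 10.49. Rpsa, also known as the laminin receptor precursor, read 10.95, 11.39, 11.58, 11.37 and 11.33. Rps7, which can bind MDM2, differed by 0.59 with doxorubicin and by 0.39 with Compound C.

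The other members at least 1.5-fold higher with doxorubicin belong to the large subunit. The P stalk recruits elongation factors to the ribosome and consists of Rplp0, Rplp1 and Rplp2. Its base Rplp0 read 9.23 (vehicle), 9.59 (Compound C), 9.90 (doxorubicin), 9.70 (GSK 690693) and 9.52 (tofacitinib). Rplp1, from a probe set near its gene, read 11.30, 11.61, 11.99, 11.68 and 11.83. Rpl8, which lies at the peptidyl transferase centre, read 10.06, 10.60, 10.75, 10.48 and 10.62, and it stood at least 0.42 above vehicle with each compound. The rest were Rpl9 (log2 0.77), Rpl32 (0.68) and Rpl7 (0.60). Rplp0, Rpl9 and Rpl7 were read from away probe sets, and their near probe sets lay below vehicle with doxorubicin, as given further below.

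Rpl26 was the exception, at 1.51-fold lower with doxorubicin (log2 −0.59). Its protein lies by the peptide exit tunnel and is known to bind p53 mRNA after DNA damage. Its probe set, near the gene, read 6.95 (vehicle), 7.05 (Compound C), 6.36 (doxorubicin), 6.54 (GSK 690693) and 6.23 (tofacitinib). Vehicle and Compound C were the high pair and the other 3 arrays were lower, tofacitinib lowest of all. Rps16 (−0.18), Rpl39l (−0.08) and Rpl28 (−0.02) were the other members below vehicle with doxorubicin.

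**Figure D2:**
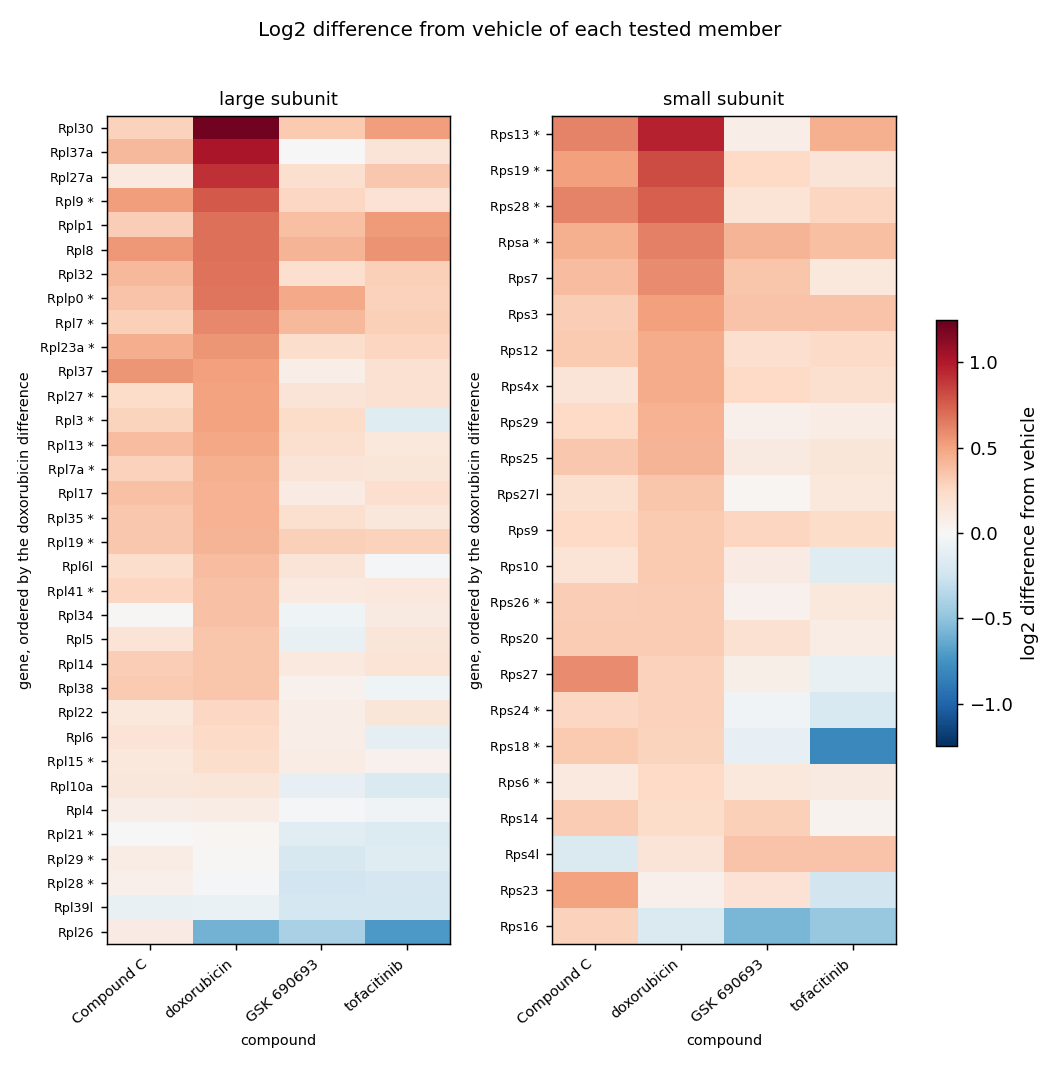
Log2 difference from vehicle of each tested member with each of the 4 compounds (columns), large subunit genes on the left and small subunit genes on the right, ordered by the doxorubicin difference; red is above vehicle, blue below, and an asterisk marks a probe set away from its gene in the numbering. The doxorubicin column is red for 53 of 57 genes, from 1.21 in Rpl30 to −0.59 in Rpl26, and Rpl26, Rps16 and Rps18 hold the deepest blue cells.

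With Compound C nearly all members also read above vehicle, with a narrower spread. Of 57 members 54 lay above vehicle, 2 below and 1 level with it, and the median log2 difference was 0.30 against −0.02 over all tested genes. The standard deviation was 0.17 over the members and 0.455 over all genes. Only 3 members (5.26%) were at least 1.5-fold higher, against 6.06% of all tested genes, and 0 were at least 1.5-fold lower, against 9.99%. The share past 1.5-fold higher was near that of all genes. Above vehicle by any amount were 94.7% of the members against 46.6% of all tested genes. Against the median of the other 4 arrays the members' median was 0.15, and centring each array on its median over tested genes gave 5 members at least 1.5-fold higher. The share of all tested genes was not counted with that centring. At 2-fold, 0 members were called, against 1.3% higher and 2.52% lower among all genes.

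The 3 members past 1.5-fold with Compound C were Rps13 (log2 0.62), Rps28 (0.62) and Rps27 (0.59), all of the small subunit. Rps27, a zinc-binding protein, read 6.69 (vehicle), 7.28 (Compound C), 6.98 (doxorubicin), 6.76 (GSK 690693) and 6.60 (tofacitinib), so here the Compound C array was highest. Rpl37 (0.55), Rpl8 (0.54), Rpl9 (0.52), Rps19 (0.51) and Rps23 (0.50) followed. Rps23, which faces the decoding centre, read 6.72, 7.22, 6.78, 6.90 and 6.49 in the order of the arrays above, and doxorubicin stood 0.06 above vehicle. At the lower end were Rps4l (−0.18), Rpl39l (−0.09), Rpl21 (0.00), Rpl34 (0.01) and Rpl28 (0.06).

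Set against each other, doxorubicin lay above Compound C in 47 of the 57 members (82.5%, against 60.2% of all tested genes). The median difference was 0.13, and the median over all tested genes was the same 0.13. At least 1.5-fold higher with doxorubicin than with Compound C were 3 members (5.26%), Rpl30, Rpl27a and Rpl37a, against 15.4% of all tested genes, and 1 member, Rpl26, was at least 1.5-fold lower, against 14.9%. Over the 12 members that were bright and near in the numbering, doxorubicin was above Compound C in 12, by a median of 0.14. Both compounds were above vehicle in 12. Among all 2157 tested genes with a mean signal of 9 or more, doxorubicin was above Compound C in 68.2%. Compound C was above vehicle in 51.6% of those 2157 genes and doxorubicin in 64.2%. The 12 bright and near members had medians of 0.31 with Compound C and 0.425 with doxorubicin. They include Rpl6l, which is listed as a pseudogene.

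**Figure D3:**
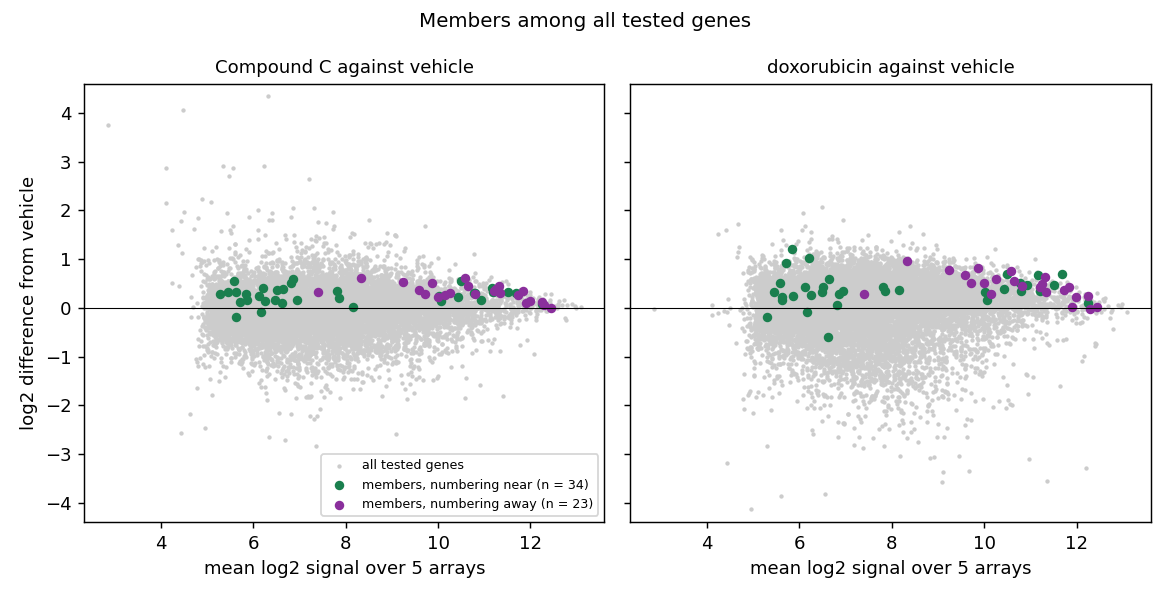
Log2 difference from vehicle (y axis) against the mean log2 signal over 5 arrays (x axis) for Compound C and doxorubicin, with all 12317 tested genes in grey, the 34 members with a probe set near their gene in green and the 23 with one away in purple. Most members sit in a band above 0 across the range of signal, and the band narrows toward 0 above a mean signal of 12. At a mean signal of 12 or more the grey points reach no higher than 0.29 (Compound C) and 0.32 (doxorubicin). With doxorubicin they reach as low as −3.29 there.

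With doxorubicin the brightest members lay close to vehicle. The 4 with a mean signal of 12 or more were Rpl4, Rpl21, Rpl28 and Rps6, and their doxorubicin differences ran from −0.02 to 0.25. Rps6, the substrate of S6 kinase downstream of mTORC1, read 12.13 (vehicle), 12.25 (Compound C), 12.38 (doxorubicin), 12.26 (GSK 690693) and 12.24 (tofacitinib). With tofacitinib Rpl28 (−0.21) and Rpl21 (−0.17) were below vehicle. Over all 58 tested genes this bright, the doxorubicin median was 0.015 and 0 genes were at least 1.5-fold higher, against 11.5% of all tested genes. At least 1.5-fold lower were 6 of the 58 (10.3%, against 14.2% of all tested genes), the lowest at −3.29. These probe sets are close to the upper end of the deposited range, at 13.18, and how far that compressed their differences was not tested.

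With GSK 690693 the members lay close to vehicle. The median was 0.13 against 0.04 over all tested genes. Above vehicle lay 44 members (77.2%, against 55.2% of all tested genes) and below it 12. At least 1.5-fold apart were 0, against 2.4% higher and 3.21% lower among all tested genes. Highest were Rplp0 (0.47), Rpl8 (0.42), Rpsa (0.42), Rpl7 (0.41) and Rplp1 (0.38). Lowest was Rps16, which lies near the decoding site and contacts the transfer RNA in the P site. It read 5.48 (vehicle), 5.77 (Compound C), 5.30 (doxorubicin), 4.91 (GSK 690693) and 5.01 (tofacitinib). Rps16 passed the filter only through the vehicle and Compound C arrays, and its GSK 690693 value lay under that array's median. After it came Rpl26 (−0.41), Rpl28 (−0.24), Rpl39l (−0.22) and Rpl29 (−0.20). With the median of the other 4 arrays in place of vehicle, the members' median turned to −0.075.

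With tofacitinib the members lay close to all genes. The median was 0.14 against 0.09. Above vehicle lay 40 members (70.2%, against 62.7% of all tested genes) and below it 17. At least 1.5-fold higher were 0, against 2.66% of all tested genes, and 2 (3.51%) were lower, against 2.0%. Centring each array on its median over tested genes turned the median to −0.03. Those 2 were Rps18 (−0.81) and Rpl26 (−0.72). Rps18, a protein of the small subunit head, read 7.46 (vehicle), 7.79 (Compound C), 7.74 (doxorubicin), 7.36 (GSK 690693) and 6.65 (tofacitinib), and this probe set lies away from its gene. Its other 2 probe sets, both below the filter, differed by −0.08 and 0.01 with tofacitinib. Highest were Rpl8 (0.56), Rplp1 (0.53), Rpl30 (0.52), Rps13 (0.44) and Rpsa (0.38). Tofacitinib and GSK 690693 differed by a median of −0.01 over the members, with 1 of 57 at least 1.5-fold lower with tofacitinib, Rps18 (1.75% against 1.14%), and 0 higher, against 2.31%.

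On the probe sets read here, the medians of large and small subunit genes lay within 0.1 of each other with each compound. The median of the large subunit minus that of the small was −0.035 (Compound C), 0.095 (doxorubicin), −0.05 (GSK 690693) and 0.02 (tofacitinib). With doxorubicin 9 of 34 large and 5 of 23 small subunit genes were at least 1.5-fold higher (26.5% and 21.7%, against 11.5% of all tested genes). The 3 members past that fold with Compound C were of the small subunit, where the count over both subunits (5.26%) was near that of all tested genes (6.06%), and Rpl37 (0.55) and Rpl8 (0.54) of the large subunit fell just short. Averaging the probe sets of each gene turned the doxorubicin difference between subunits to −0.02. With the probe set near the gene in the numbering, the difference was −0.12 with GSK 690693 and −0.07 with tofacitinib. Over the 34 members read near their gene it was −0.11 with GSK 690693 and 0.02 with tofacitinib.

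Rpl5, Rpl38, Rps25, Rps26 and Rpl22, named here for their known roles, lay within 1.5-fold of vehicle with each compound. Other members with known roles, among them Rps7, Rpl26 and Rpsa, were past 1.5-fold with doxorubicin, as given above. Rpl5, the partner of Rpl11 in binding MDM2, read 6.82 (vehicle), 6.99 (Compound C), 7.17 (doxorubicin), 6.73 (GSK 690693) and 6.97 (tofacitinib). Rpl38, needed for the translation of Hox mRNAs in the embryo, read 11.06, 11.39, 11.41, 11.11 and 11.01 in that order, so Compound C and doxorubicin were the high pair. Rps25, used by viral internal ribosome entry sites, read 7.61, 7.95, 8.03, 7.72 and 7.76. Rps26, which contacts mRNA at the exit channel, read 11.19, 11.50, 11.51, 11.24 and 11.32, again with Compound C and doxorubicin on top. Rpl22, dispensable in most tissues but needed by developing T cells, ranged from 6.14 with vehicle to 6.40 with doxorubicin.

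Paralog pairs did not always keep together. Rps27l, a p53-inducible paralog of Rps27, differed by 0.20 with Compound C and by 0.35 with doxorubicin, where Rps27 differed by 0.59 and 0.29. Rps4x and Rps4l stood on opposite sides of vehicle with Compound C (0.16 and −0.18) and on the same side with doxorubicin (0.46 and 0.16). Rps4l, listed as a transcribed pseudogene, is dim. It read 5.48 with vehicle and 5.30 with Compound C, where the array median was 5.38. Rpl39l was below vehicle on all 4 compound arrays, by 0.08 to 0.22. It was the single tested member with that pattern (1.75%), which 11.9% of all tested genes showed. Rpl7l1, which falls outside the symbol rule, stood at −0.18 with Compound C and 0.58 with tofacitinib where Rpl7 stood at 0.30 on both. The pairs with Rpl10 and with Rpl36a were not analysed here.

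Other probe sets of the same genes did not all share the doxorubicin difference. For 18 of the members read away from their gene, another probe set lay near it in the numbering, and it was dimmer in each. With doxorubicin the away probe sets were above vehicle in 18 of 18, with a median of 0.46, and the near ones were below vehicle in 12 of 18, with a median of −0.14. Rpl3, whose protein lies at the peptidyl transferase centre, was the extreme case. Its away probe set read 9.55 (vehicle), 9.83 (Compound C), 10.05 (doxorubicin), 9.78 (GSK 690693) and 9.40 (tofacitinib). The brighter of its near probe sets read 6.94, 6.55, 5.46, 7.18 and 7.50, so doxorubicin was highest on the first and lowest on the second, by 1.48 below vehicle. Rps19 (0.82 and −0.14), Rpl9 (0.77 and −0.16), Rps28 (0.75 and −0.28) and Rplp0 (0.67 and −0.17) also changed side between the away and the near probe set. So did Rpl7 (0.60 and −0.12), Rpl27 (0.50 and −0.34), Rpl7a (0.44 and −0.33), Rps26 (0.32 and −0.40) and Rps18 (0.28 and −0.44). Rpsa (0.63 and 0.57), Rpl13 (0.48 on both) and Rpl19 (0.42 and 0.57) did not. The near probe sets of Rps19, Rpl9, Rps26 and Rps18 lay below the filter, with mean signals of 5.02, 4.65, 3.05 and 4.62. Rps20, with both probe sets near, stood at 0.32 on the one read and −0.53 on the other, which lay below the filter.

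With Compound C the same 18 genes split less, at medians of 0.32 for the away and 0.25 for the near probe sets, and 16 near ones lay above vehicle. With GSK 690693 the medians were 0.185 and 0.08, and with tofacitinib 0.145 and −0.005. Restricted to the 13 genes whose near probe set passed the filter, the doxorubicin medians were 0.48 and −0.01. With the near probe set in place of the away one wherever it existed, and members without one left out, 47 members were tested. Of these, 34 kept the probe set read above. The doxorubicin median was 0.35, and 7 of the 47 were at least 1.5-fold higher and 2 lower. On the probe sets read above, 14 of 57 members were higher and 1 lower, against 11.5% and 14.2% of all tested genes. Over all further probe sets, the doxorubicin difference stood at least 1.5-fold apart from that of the one read in 12 of 33 cases among members (36.4%) and in 20.1% of 986 cases among other genes. With the further probe set past the filter these shares were 24% of 25 and 17.3% of 480. With Compound C they were 6.06% of 33 and 18% of 986, with GSK 690693 0 and 8.32%, and with tofacitinib 18.2% and 17.2%.

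**Figure D4:**
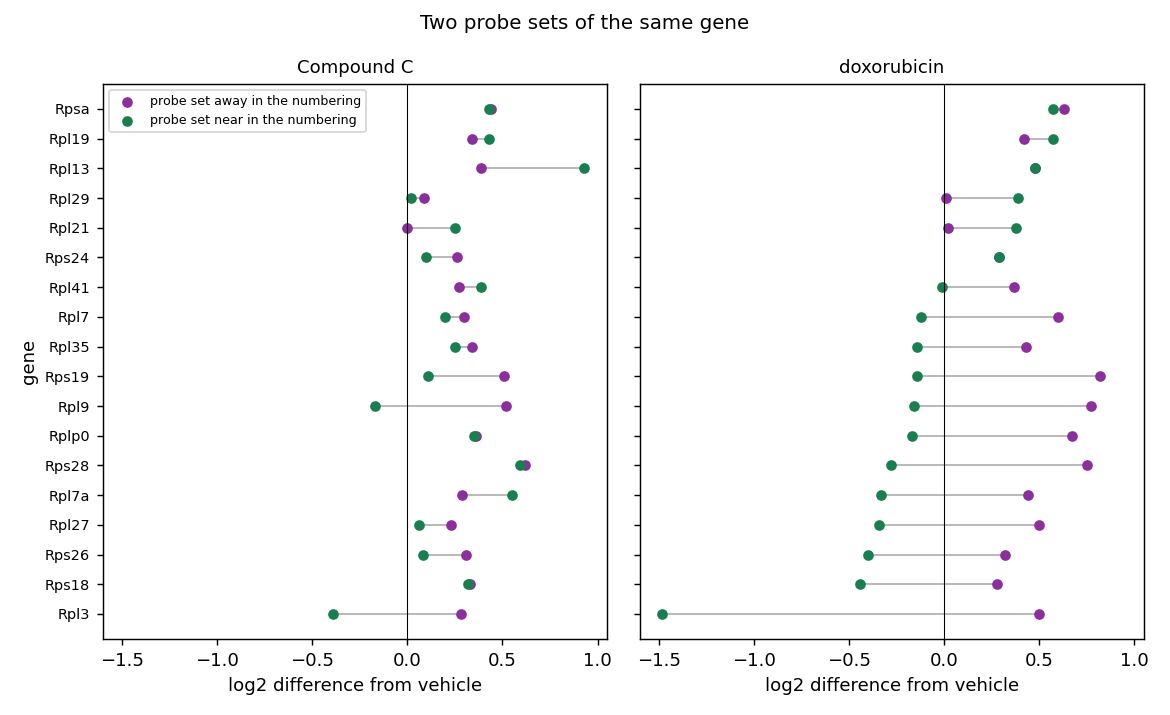
Log2 difference from vehicle (x axis) with Compound C and with doxorubicin for 18 genes (y axis) that have a probe set away from the gene in the numbering (purple, the one read here) and one near it (green), joined by a line and ordered by the near value with doxorubicin. With doxorubicin the purple points lie between 0.01 and 0.82 and the green between −1.48 and 0.57, and a single visible point (Rpl13, Rps24) means that both values are equal.

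Genes that work with the ribosomal proteins did not share one direction. Fau, whose protein is cleaved to a small subunit protein, followed the members with 0.45 (Compound C), 0.61 (doxorubicin), 0.22 (GSK 690693) and 0.10 (tofacitinib). Rsl24d1, also outside the symbol rule, stood at −0.08, −0.17, 0.02 and −0.06 in that order. Rpl22l1, below the filter, stood at −0.21, −0.27, −0.53 and −0.39. Of 21 tested genes for other TOP mRNAs, 0 were at least 1.5-fold apart from vehicle with Compound C, with a median of 0.08. Among all tested genes 6.06% were higher and 9.99% lower. With doxorubicin 4 of the 21 were higher (19.0%, against 11.5% of all tested genes) and 2 lower (9.52%, against 14.2%), with a median of 0.13. The higher 4 were Pfdn5 (0.66), Eif3k (0.64), Eif3f (0.59) and Eif3h (0.59), and the lower 2 were Eif3a (−0.61) and the snoRNA host gene Snhg1 (−0.60). Elongation factor Eef2 differed by 0.18 with Compound C and 0.21 with doxorubicin, and Eef1a1 by 0.07 and −0.03. Eif4b (0.59) was the only gene of the 21 past 1.5-fold with GSK 690693, 4.76% higher against 2.4% of all tested genes. With tofacitinib 0 of the 21 were past 1.5-fold, against 2.66% higher and 2.0% lower among all tested genes. The median of the 21 was 0.15 with GSK 690693 and 0.14 with tofacitinib. The ribosomal protein genes had medians of 0.13 and 0.14 there, and all tested genes 0.04 and 0.09.

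Ribosomal protein chaperones and late assembly factors, 20 tested genes, had medians of −0.14 (Compound C), 0.135 (doxorubicin), 0.23 (GSK 690693) and 0.185 (tofacitinib). At least 1.5-fold lower with Compound C were 2, Heatr3 (−1.47), which accompanies Rpl5 into the nucleus, and the kinase Riok1 (−0.65), and 0 were higher. This is 10.0% of the list, against 9.99% of all tested genes. Heatr3 read 7.97 (vehicle), 6.50 (Compound C), 8.11 (doxorubicin), 8.58 (GSK 690693) and 8.59 (tofacitinib), so only the Compound C array was low. With doxorubicin 3 were lower, the 60S export adaptor Nmd3 (−1.61), the endonuclease Nob1 (−1.43) and Riok1 (−1.14), and Aamp (0.86), the relative of a yeast Rpl10 chaperone, was higher. The shares were 15% lower, against 14.2% of all tested genes, and 5.0% higher, against 11.5%. With GSK 690693 2 of the 20 (10.0%, against 2.4% of all tested genes) were at least 1.5-fold higher, the Rpl3 chaperone gene Grwd1 (0.64) and Heatr3 (0.61). With tofacitinib 2 (10.0%, against 2.66%) were, Aamp (0.69) and Heatr3 (0.62), and Grwd1 stood at 0.55. With both compounds 0 were lower, against 3.21% and 2.0%.

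Regulators of TOP mRNA translation, 14 tested genes, had medians of 0.055, −0.065, 0.045 and 0.01 for Compound C, doxorubicin, GSK 690693 and tofacitinib. With Compound C the mTORC1 inhibitor Tsc1 (0.86) and the cap-binding repressor gene Eif4ebp1 (0.85) were at least 1.5-fold higher and the S6 kinase gene Rps6kb2 (−0.82) was lower, 14.3% and 7.14% of the list against 6.06% and 9.99% of all tested genes. With doxorubicin Larp4b (−0.67) was lower (7.14%, against 14.2% of all tested genes) and 0 were higher, against 11.5%. Larp1 differed by −0.03. Among 10 tested genes of ribosome quality control and the MDM2 checkpoint, 3 were at least 1.5-fold lower with doxorubicin, the stalled-ribosome rescue factor Pelo (−1.59), the deubiquitinase Usp10 (−1.44) and the p53 ubiquitin ligase Mdm2 (−1.42), and 0 were higher. Those 3 are 30.0% of a short list, against 14.2% of all tested genes, and the share of all tested genes higher was 11.5%. With Compound C, GSK 690693 and tofacitinib 0 of these 10 were past 1.5-fold. Among all tested genes the shares higher were 6.06%, 2.4% and 2.66%, and the shares lower 9.99%, 3.21% and 2.0%, in that order.

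Fibroblast markers, which the label calls for, were measured on all arrays. All 11 fibroblast markers passed the filter, from 6.30 for Lum with vehicle to 12.68 for Vim with doxorubicin. The summed log2 signal of these 11 ran from 108.79 with Compound C to 111.91 with doxorubicin. Of the leukocyte markers 1 of 5 measured passed (range 3.28 to 5.52), of the endothelial ones 2 of 4 (4.31 to 6.26) and of the epithelial ones 3 of 4 (3.59 to 6.20). The summed log2 signal ran from 21.39 to 22.0 for the leukocyte, 19.65 to 20.67 for the endothelial and 20.26 to 20.9 for the epithelial markers. In bulk RNA, more of a transcript per cell and a larger share of cells carrying it cannot be told apart. Single fibroblast markers differed between arrays too, Lum by 1.80 and Col1a1 by −0.64 with doxorubicin, and their part in the ribosomal protein differences was not tested.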

How the data were processed

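Values deposited by the authors are log2 signals, 1 for each probe set on each array, made with Affymetrix Expression Console 1.3.1.187 per the submitters' processing notes; the log base was inferred from the values, and the sources used here do not give the summarisation, normalization or genome build. Per the labels, 300 ng of total RNA was labelled per sample. Of 41345 probe sets, 23521 carried a single symbol and 1814 several, which were named for none. Differences are plain subtractions of log2 values, counted at 1.5-fold and 2-fold, and 0 value columns were left unused. The number of arrays limits the precision. The members and lists were chosen with earlier results of these data known. Genes named are members past 1.5-fold with any compound, the 5 highest and 5 lowest members per compound, those below the filter, those with discordant probe sets, the paralog pairs and a fixed set of roles, and from each list those with the largest differences. The search by probe set numbering was added after the values were seen, and the members named as near or away, the bright members, Eef1a1, Eef2, Larp1, Lum, Col1a1 and Vim were named then too. The analysis used Python 3.11.15, pandas 2.3.3 and numpy 2.4.6, and the counting was tested on simulated data. Protein identity of the paralogs was not analysed here.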

Additional observations from a re-analysis of the deposited data

How the results depend on the processing

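The members' median stayed above 0 under all 9 alternatives for Compound C (0.15 to 0.36) and doxorubicin (0.275 to 0.45). It ran from −0.075 to 0.19 for GSK 690693 and from −0.075 to 0.21 for tofacitinib. When each compound array was set against the other 4 arrays (their median), the members' medians were 0.15 (Compound C), 0.275 (doxorubicin), −0.075 (GSK 690693) and −0.075 (tofacitinib), 5 members were at least 1.5-fold higher and 0 lower with doxorubicin, and 1 was lower with tofacitinib. Centring the arrays on tested genes gave 5 higher with Compound C, 0 lower with doxorubicin, 1 lower with GSK 690693 and a tofacitinib median of −0.03. Centring on single-symbol probe sets gave 5 higher with Compound C, 0 lower with doxorubicin and 3 higher with tofacitinib. Averaging a gene's probe sets gave 9 higher with doxorubicin, 1 lower with tofacitinib and a large minus small subunit difference of −0.02 with doxorubicin. Without a filter 1 member was lower with GSK 690693. At 2-fold, 0 were higher with Compound C, 2 higher and 0 lower with doxorubicin, and 0 lower with tofacitinib. Of the alternatives added after seeing the data, probe sets near the gene gave 7 of 47 members higher and 2 lower with doxorubicin and 1 lower with tofacitinib. The 34 members read near their gene gave 1 higher with Compound C (2.94%), 7 higher with doxorubicin (20.6%) and 1 lower with tofacitinib (2.94%). In the main setting the shares of all tested genes were 6.06% higher with Compound C, 11.5% higher and 14.2% lower with doxorubicin, and 2.0% lower with tofacitinib. For the centred, averaged, unfiltered and other-array settings the shares of all tested genes were not counted, so those counts have no background beside them. The cause of these changes was not tested. No paired analysis was possible because each group has 1 array. The number of arrays limits the precision, and no replicate could be left out.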
